A study of Homo sapiens with 8 samples.

Results

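The olfactory receptor genes that lie on autosomes other than chromosome 11 were examined in SUM159 cells. Members were the protein-coding GENCODE genes with a symbol made of OR, a family number, a subfamily letter or letters and a number, such as OR13F1. This gave 227 genes on 16 chromosomes, out of 400 receptor genes by symbol (172 more lie on chromosome 11 and 1 on X) and 19962 protein-coding genes in all. SUM159 is a triple-negative, mesenchymal breast cancer cell line. All cells were transduced with a lentiviral vector for dCas9-KRAB, a nuclease-dead Cas9 fused to a KRAB repressor domain that brings in H3K9 methylation. All gRNA cells also received 4 guides against the ZEB1 promoter, and No gRNA cells received the empty guide vector. Native ChIP-seq of H3K9me3 and of H3K4me3 gave 2 libraries per group and mark (8 in all), which the labels call biological replicates. The measure was the share, that is the percent of a window around the annotated transcription start site (TSS) covered by deposited peaks, over TSS ± 10 kb for H3K9me3 and TSS ± 1 kb for H3K4me3, in hg38.

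Olfactory receptors are G protein-coupled receptors that bind odorants on olfactory sensory neurons. Each such neuron expresses a single receptor allele, while the remaining receptor genes sit in clusters packed into heterochromatin that carries H3K9me3 and H4K20me3. H3K9me3 marks silent chromatin and H3K4me3 marks the start sites of active or poised genes, and receptor genes are largely silent outside the nose.

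The labels held at the targeted locus for H3K9me3, where peaks covered 79.4% and 82.0% of the ZEB1 window in All gRNA cells and 4.57% and 1.33% in No gRNA cells. H3K4me3 at ZEB1 was 0% and 100% in the All gRNA-labelled libraries and 0% and 100% in the No gRNA-labelled ones, and the deposited file names give a library of each labelled group the other condition, so H3K4me3 libraries are named by their labels throughout. A difference in H3K4me3 between the labelled groups may thus not be one between All gRNA and No gRNA cells. Among markers of cell type, the mesenchymal gene VIM had an H3K4me3 share of 100% in all 4 libraries, while PTPRC (leukocytes) and ESR1 (luminal epithelium) were at 0% and the olfactory neuron genes OMP and CNGA2 at 0% in 3 of 4. Other markers did not follow this division, since the epithelial genes EPCAM, CDH1 and GATA3 had shares between 24.2% and 100%, the T cell gene CD3E had 0% and 100% in the All gRNA-labelled libraries and 68.7% and 0% in the No gRNA-labelled ones, and GNAL, also an olfactory neuron marker, had 63.3% and 100%, and 0% and 35.0%. Peak lists hold no read counts, so depth is unknown. They also hold weak peaks, with p up to about 0.1, and they covered between 24.8% and 26.4% of the genome for H3K9me3 and between 21.4% and 32.0% for H3K4me3.

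The receptor genes carried more H3K9me3 peak cover than most promoters. Their median share was 18.2% and 19.5% in All gRNA cells and 19.3% and 18.0% in No gRNA cells, against 3.59% and 4.78%, and 6.63% and 7.62%, over all promoters. Beside the genome as a whole, the mean member share was slightly higher in All gRNA cells and slightly lower in No gRNA cells. The mean member share was 27.2% and 27.5% in All gRNA cells and 24.2% and 23.5% in No gRNA cells. Peaks covered 25.4% and 26.4%, and 24.8% and 24.9%, of the genome in the same libraries. An H3K9me3 peak lay in the window in all 4 libraries for 179 members, or 78.9%, compared with 50.7% of all promoters. Shares of at least 50% in every library were found for 21 members (9.25%, against 5.47% of all promoters). The level was near that of the receptor genes of chromosome 11, with medians of 22.8% and 26.3% in All gRNA cells and 16.8% and 16.9% in No gRNA cells. It was far below that of the 240 ZNF (zinc finger) genes of chromosome 19, which had medians between 90.1% and 94.5%. Most of this cover was weak. Only peaks at q ≤ 0.05 in the window left 16.7% and 16.3% of members in All gRNA cells and 12.3% and 25.6% in No gRNA cells, although this was still more than the 6.39%, 5.77%, 3.53% and 10.3% of all promoters in the same order. Just 7 members had such a peak in all 4 libraries. These were OR2M3 and OR2T1 on chromosome 1, OR1L4 and OR1L6 on chromosome 9, OR11H12 and OR4Q3 on chromosome 14 and OR11H1 on chromosome 22.

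**Figure D1:**
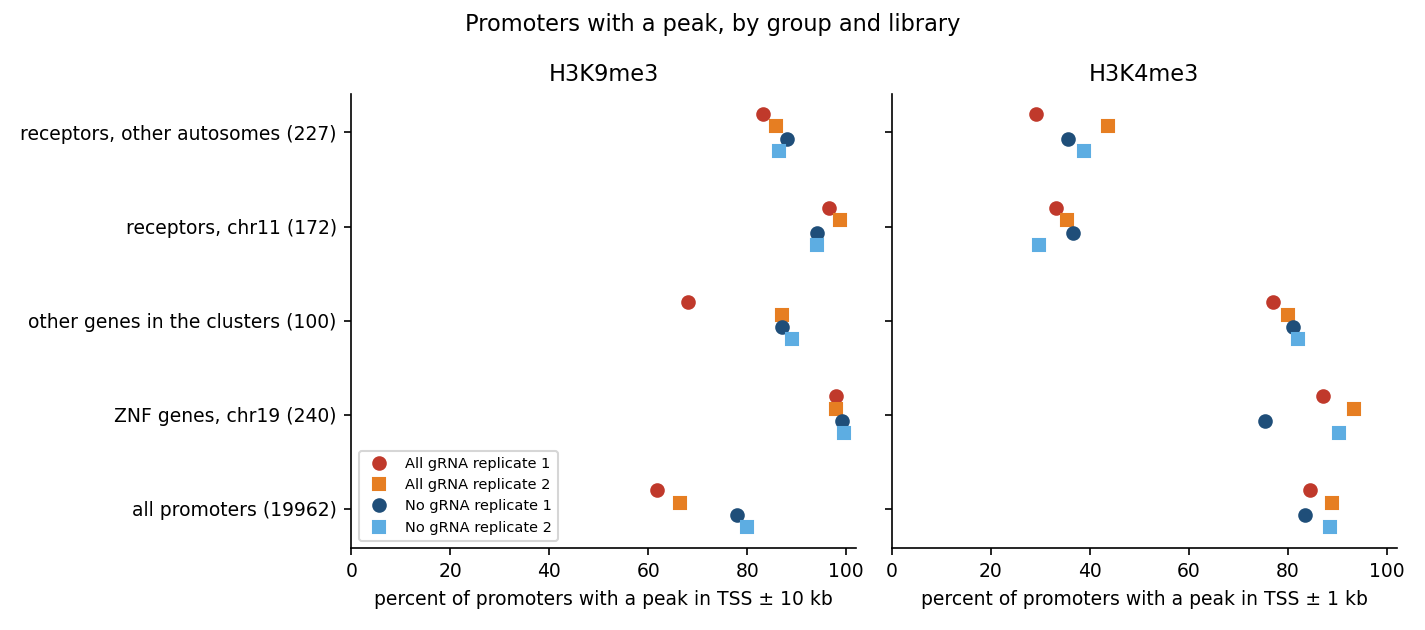
Percent of promoters with a deposited peak in the window (x axis) for 5 groups of genes (y axis, number of genes in brackets), each point 1 library. The 227 receptor genes sit between 83.3% and 88.1% for H3K9me3 and between 29.1% and 43.6% for H3K4me3, where all promoters lie between 83.5% and 88.9%.

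The level varied with where a gene lay. Receptor genes of a chromosome were joined into a cluster where consecutive start sites were at most 1 Mb apart, which gave 31 clusters. The 12 with 5 or more members held 193 genes, and the remaining 34 genes lay in 19 smaller ones. Neighbours are not independent, since the windows of 111 members overlap another member's window. Means over the members of a large cluster ran from near 0% to above 90%.

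The most heavily covered cluster lay on chromosome 19 (chr19:8721634-9247344, start of first to last member, 8 genes from OR2Z1 to OR7E24). Its mean share was 97.3% and 95.4% in All gRNA cells and 91.5% and 91.8% in No gRNA cells. It holds OR7D4, the receptor for androstenone, with shares of 100% and 94.6% in All gRNA cells and 95.1% and 86.9% in No gRNA cells. Around OR7G1 a single peak of 216940 bases was called in All gRNA replicate 1. This was the sole large cluster where cover at q ≤ 0.05 was extensive, at a mean of 91.2% and 32.5% in All gRNA cells and 0% and 55.9% in No gRNA cells, so that libraries of the same group differed more than the groups. The lowest member, OR2Z1, lay at the edge of the cluster and was still covered at 84.9% and 89.7% in All gRNA cells and 73.8% and 80.7% in No gRNA cells.

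Intermediate cover was seen in several clusters. The largest, on chromosome 1 (chr1:247458105-248682328, 43 genes), averaged 39.2% and 38.1% in All gRNA cells and 34.1% and 34.4% in No gRNA cells, with members from OR2T6, at a mean of 0.282% over the 4 libraries, to OR2C3 at 69.4%. Besides OR2C3, the members with shares of at least 50% in every library were OR2AK2, OR2L5, OR2L2, OR2L3, OR2M2 and OR2M3, which lie near each other within the cluster. The second large cluster of chromosome 9 (chr9:122477926-122800123, 14 genes) averaged 32.7% and 28.7% in All gRNA cells and 34.5% and 32.4% in No gRNA cells, and ranged from OR1J1 (11.7%) to OR1L4 (79.7%). Lower values were found in the clusters of chromosome 3 (12 genes, 13.6% to 17.7% over the 4 libraries), chromosome 12 (15 genes, 14.9% to 16.3%), proximal 1q (17 genes, 15.1% to 20.6%) and chromosome 7 (14 genes, 8.76% to 11.5%). Single genes could be as heavily covered as a cluster. OR11H12, apart from the other receptor genes of chromosome 14, had 76.4% and 76.7% in All gRNA cells and 80.1% and 71.4% in No gRNA cells, and OR11H1, the one member on chromosome 22, had 84.4% and 81.3%, and 76.0% and 73.0%. The coding sequences of OR11H12 and OR11H1 are 96.1% identical, so their values may not be separate examples.

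At the other end, 19 members (8.37%, against 9.59% of all promoters) had no H3K9me3 peak in any library, and 13 of them lay in the cluster of chromosome 6 (chr6:29045175-29585121, 14 genes). The remaining gene there, OR2J3, a receptor that responds to the leaf odorant cis-3-hexen-1-ol, had 2.91% and 0% in All gRNA cells and 1.31% and 0% in No gRNA cells. The cluster lies within the major histocompatibility complex (MHC), and H3K4me3 was at 0% in every library at all 14 genes as well. The low cover extended beyond the receptors. Over the 5 Mb stretch that spans the MHC and holds 183 protein-coding genes, H3K9me3 peaks covered between 0.253% and 0.413% of the sequence, against 27.7% to 30.1% over the 5 Mb before it and 4.24% to 8.64% over the 5 Mb after it. H3K4me3 peaks covered 3.23% to 7.35% of it, against 37.5% to 41.8% and 46.0% to 60.5%. The peak lists also name alternate MHC haplotype contigs, on which 383 and 761 H3K4me3 peaks were listed in the All gRNA-labelled libraries and 1016 and 1063 in the No gRNA-labelled ones. H3K9me3 peaks on these contigs were few, 20 and 13 in All gRNA cells and 11 and 28 in No gRNA cells. Whether reads placed there lowered the cover of the main chromosome was not tested. H3K4me3 cover was also low within the receptor cluster of chromosome 17 (chr17:3063607-3433841, 11 genes), at 1.76% to 4.92%. It was 12.3% to 23.4% over the 2 Mb before the cluster and 13.3% to 22.6% over the 2 Mb after. H3K9me3 was not lower there than around it, at 4.69% to 5.33% of the cluster against 0.260% to 0.519% over the 2 Mb before and 1.38% to 2.20% over the 2 Mb after. The mean H3K9me3 share of these 11 genes was 2.03% to 3.20%, and OR1P1 was the highest at 17.5%. Without both clusters, an alternative chosen after seeing the data, the median H3K9me3 share of the remaining 202 members rose to 22.6% and 24.2% in All gRNA cells and 21.03% and 20.3% in No gRNA cells, and 178 of them (88.1%) had a peak in all 4 libraries. Their mean share was 30.5% and 30.7% in All gRNA cells and 27.1% and 26.3% in No gRNA cells. That was above the genome cover of every library.

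**Figure D2:**
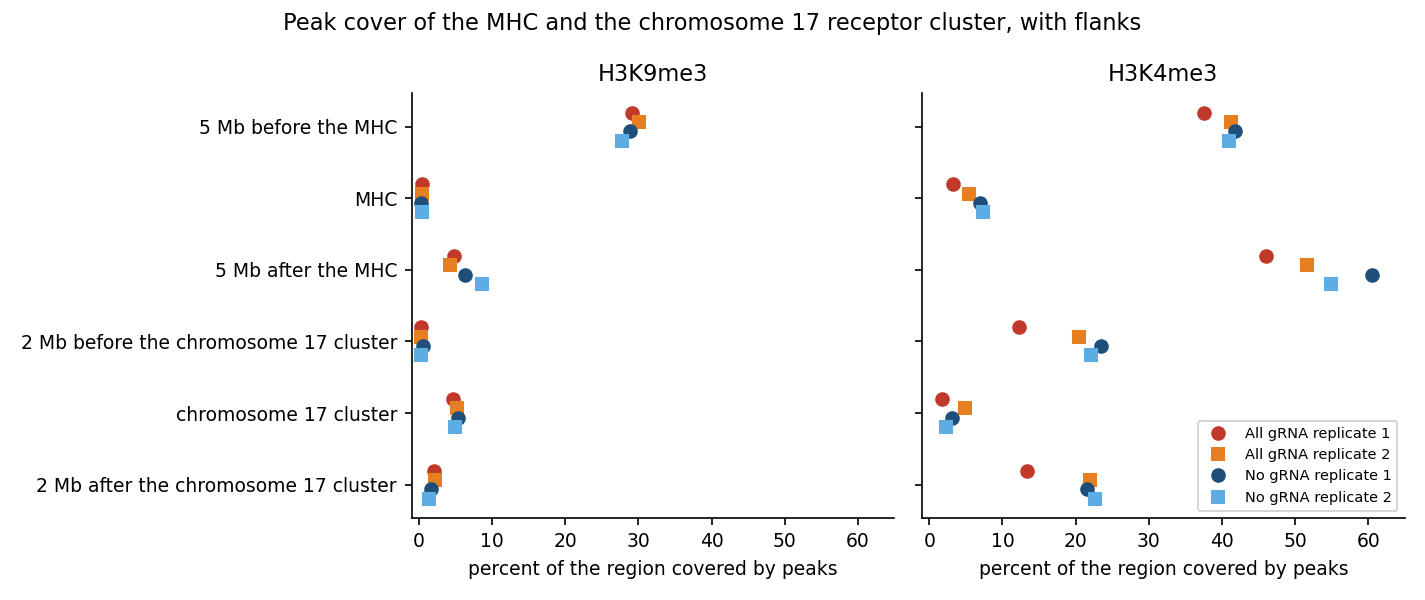
Percent of a region covered by peaks (x axis) for the MHC, the receptor cluster of chromosome 17 and their flanks (y axis), each point 1 library. H3K9me3 in the MHC lies between 0.253% and 0.413% and H3K4me3 between 3.23% and 7.35%, below both flanks in every library.

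To ask whether receptor genes away from the guides differed between All gRNA and No gRNA, a promoter was called where the groups were separated by 25 points or more, measured from the lower library of the higher group to the higher library of the lower group. Called higher in H3K9me3 were 2 of 227 members (0.881%), OR13F1 and OR13C8, against 0.180% of all promoters, and called lower were 0, against 0.0351%. The smallest p an exact two-sided permutation test over 2 and 2 libraries can give is 0.33, so no single gene could pass 0.05. Both genes lie in the first large cluster of chromosome 9 (chr9:104504263-104694518), which holds 8 single-exon genes of family 13 and no other protein-coding gene.

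OR13F1 (ENSG00000186881.3, plus strand, chr9:104504263-104505222) was covered at 83.7% and 79.7% in All gRNA cells and at 39.3% and 41.2% in No gRNA cells. The groups were 38.5 points apart, with means of 81.7% ± 2.82 and 40.3% ± 1.35 (SD, n = 2 each, p = 0.33 in the exact permutation test, the smallest it can give). This gap ranked 10 among the 19962 promoters in the higher direction. OR13C8 (ENSG00000186943.1, plus strand, chr9:104569168-104570130) had 50.4% and 67.4% in All gRNA cells and 24.5% and 8.10% in No gRNA cells, so that the groups lay 26.0 points apart. The peaks behind these values were weak, since the best q of any peak in the OR13F1 window was 0.0869 in All gRNA cells and 0.169 in No gRNA cells, and at q ≤ 0.05 both genes were at 0% in every library. Members just outside the threshold were OR4K5 with a gap of 24.4 points, OR14I1 with 24.3, OR7C1 with 23.5 and OR7A5 with 23.1. The promoters of both called genes are given from RefSeq (GRCh38.p14, plus strand, chr9:104504013-104504312 and chr9:104568918-104569217), with 250 bases before and 50 after the start and with any TATAAA, any TAATTA and any CCCNNGGG on either strand in capitals.
OR13F1: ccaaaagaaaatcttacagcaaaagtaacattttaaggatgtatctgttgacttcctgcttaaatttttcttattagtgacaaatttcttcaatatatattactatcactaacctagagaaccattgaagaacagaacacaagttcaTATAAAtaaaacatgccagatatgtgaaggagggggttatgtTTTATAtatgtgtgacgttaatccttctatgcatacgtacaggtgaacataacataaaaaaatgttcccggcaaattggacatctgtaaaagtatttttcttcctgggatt
OR13C8: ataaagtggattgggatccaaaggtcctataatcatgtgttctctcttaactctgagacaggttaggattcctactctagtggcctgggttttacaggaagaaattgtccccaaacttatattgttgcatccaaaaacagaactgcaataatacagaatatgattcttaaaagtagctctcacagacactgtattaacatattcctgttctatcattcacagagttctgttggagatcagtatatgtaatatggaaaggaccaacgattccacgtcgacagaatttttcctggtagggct
Both windows are poor in G and C (31.7% and 38.3%) and hold 3 CpG each. OR13F1 has TATAAA on the gene's strand from 103 bases before the start and on the other strand from 61 bases before it, whereas OR13C8 holds none of these letters in this window.

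H3K9me3 over the whole OR13 cluster differed in the same direction as at its 2 called genes. All 8 members had both All gRNA libraries above both No gRNA libraries, as did 11% of all promoters, and the cluster mean was 33.8% and 40.6% in All gRNA cells against 16.4% and 12.2% in No gRNA cells. The stretch between them differed too, as peaks covered 37.9% and 41.9% of the span from OR13F1 to OR13D1 in All gRNA cells and 16.7% and 13.0% in No gRNA cells. The other 6 members were lower, such as OR13C2 with 8.40% and 25.5% in All gRNA cells and 4.71% and 6.02% in No gRNA cells, and OR13C9 with 30.1% and 35.2% against 20.5% and 10.2%. The next receptor genes on either side, which lie far from the cluster, differed in direction. The 3 genes before the cluster (chr9:35870401-36003867), of which OR13J1 and OR13C7 also belong to family 13, averaged 19.3% and 18.4% in All gRNA cells and 21.1% and 30.2% in No gRNA cells. OR13C7 was lower without overlap, at 28.1% and 30.8% against 45.0% and 48.1%. OR2K2, the next receptor gene after the cluster (start at chr9:111330224), had 19.0% and 19.1% in All gRNA cells and 5.65% and 12.8% in No gRNA cells. In the second large cluster of chromosome 9, by contrast, the cluster mean of the groups overlapped. At q ≤ 0.05 the mean H3K9me3 share of the OR13 cluster was 1.61% and 1.63% in All gRNA cells and 0% and 0% in No gRNA cells. Its mean H3K4me3 share was also higher in the All gRNA-labelled libraries (12.5% and 14.9%) than in the No gRNA-labelled ones (1.84% and 4.79%). For H3K4me3, 0 of its members were separated without overlap.

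**Figure D3:**
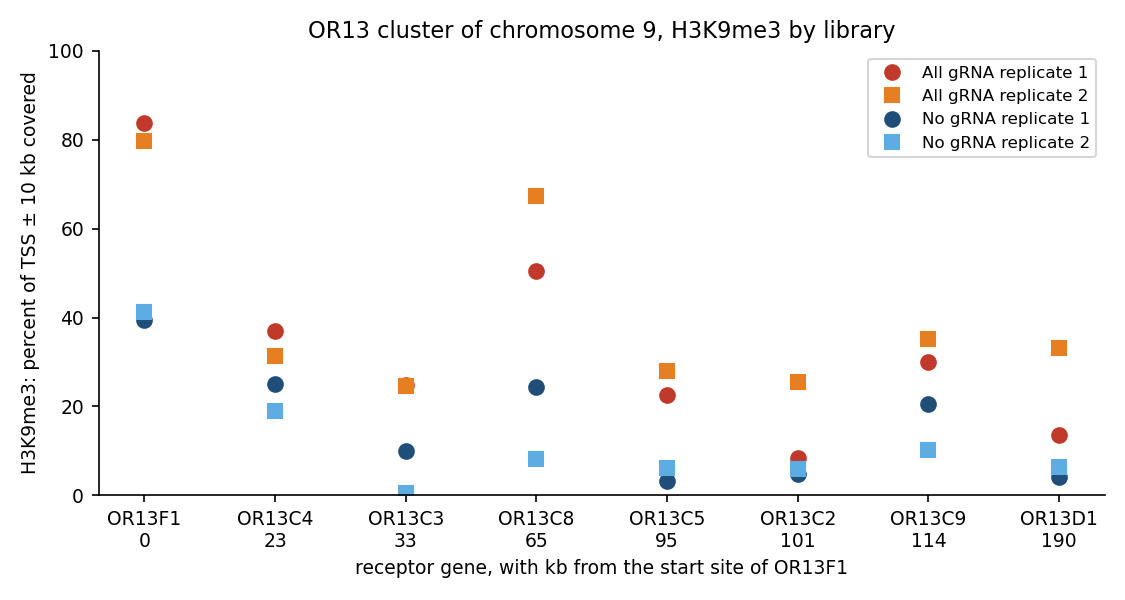
H3K9me3 share (y axis, percent of TSS ± 10 kb covered) of the 8 genes of the OR13 cluster in order along chromosome 9 (x axis, with the distance from OR13F1 in kb), each point 1 library. Both All gRNA points lie above both No gRNA points at every gene, with the widest gap at OR13F1 (38.5 points).

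Of the 12 large clusters, 5 had both All gRNA means above both No gRNA means and 1, that of chromosome 7, had the reverse. Stretches of other genes were not scored in this way, so these counts have no background beside them. Besides the OR13 cluster, the difference was widest in the second cluster of chromosome 19 (chr19:14835185-15944299, 11 genes), at 35.9% and 37.5% against 17.7% and 22.2%, and on chromosome 14 (chr14:19713883-22644352, 26 genes), at 42.7% and 41.2% against 29.8% and 29.1%. On chromosome 19 the widest gaps were those of OR7A5 (46.5% and 44.7% against 12.7% and 21.5%) and OR7C1, whose start sites lie almost together and share their window. The gene CYP4F12, which lies inside that cluster and is no receptor, had 94.3% and 94.4% in All gRNA cells and 44.8% and 47.8% in No gRNA cells. Within the chromosome 14 cluster 17 of 26 members lay higher in All gRNA without overlap and 1 lower, where 11% and 24.4% of all promoters did. OR4K5 had 54.4% and 54.9% in All gRNA cells and 30.0% and 15.1% in No gRNA cells. OR4K17 had 72.5% and 63.8% against 41.7% and 37.3%. OR11H4, OR11H6 and OR11H7, farther along the same cluster, overlapped between groups, as in OR11H7 with 45.7% and 61.3% against 52.5% and 49.6%.

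Over all 227 members, 66 (29.1%) were higher in All gRNA without overlap, where 11% of all promoters were, and 31 (13.7%) were lower, where 24.4% of all promoters were. The median over members of the difference All gRNA minus No gRNA was 0.70 points, against -0.92 over all promoters and 7.55 over the receptor genes of chromosome 11. Peak lists of the groups also differed in make-up, which moves with this result. The All gRNA lists held 321975 and 342875 peaks and the No gRNA lists 401362 and 410355, with 740 and 770 Mb against 723 and 724 Mb covered on the main chromosomes. Its part in the result was not tested beyond the setting with equal covered length, in which OR13F1 and OR13C8 were called again and 5 large clusters were higher. In that setting 59 members were higher without overlap (8.55% of all promoters were) and 40 lower (29.4%), and the difference between the medians of the groups turned from 0.23 to -2.10 points. It also turned to -0.42 without All gRNA replicate 2 and to -0.41 without No gRNA replicate 2.

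**Figure D4:**
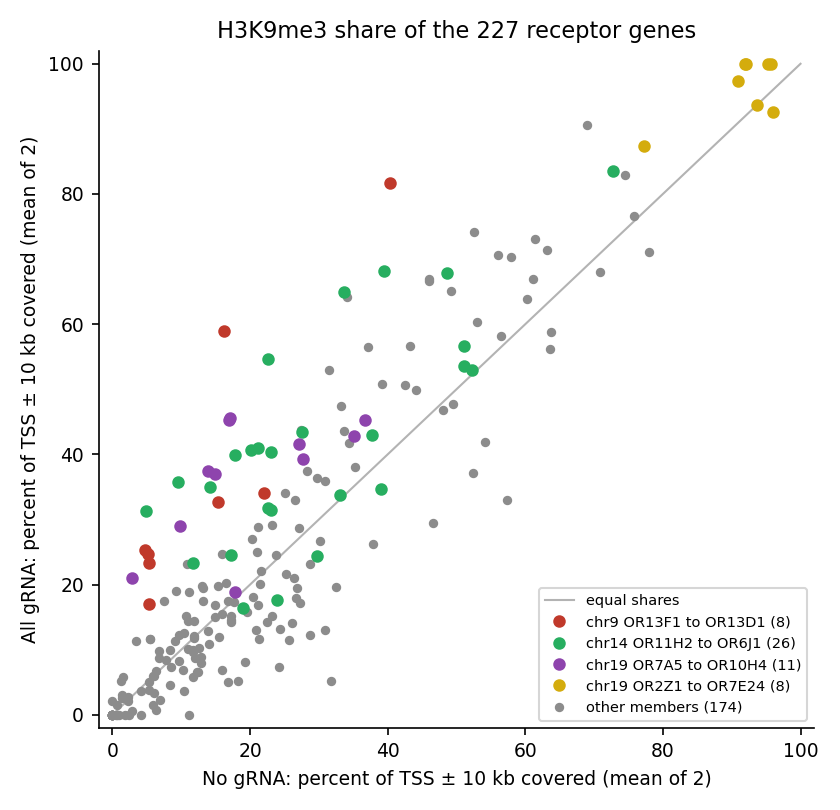
H3K9me3 share of the 227 receptor genes, as the mean of the 2 No gRNA libraries (x axis) and of the 2 All gRNA libraries (y axis), in percent of TSS ± 10 kb. Points above the grey line are higher in All gRNA, which holds for all 8 genes of the OR13 cluster, led by OR13F1 (40.3% and 81.7%).

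Receptor genes had an H3K4me3 peak at the start site less often than promoters in general. A peak was present in TSS ± 1 kb at 29.1% and 43.6% of members in the All gRNA-labelled libraries and 35.7% and 38.8% in the No gRNA-labelled ones, against 84.6% and 88.9%, and 83.5% and 88.5%, of all promoters. The median member share was 0% in each library. The mean member share was 11.5% and 19.3% in the All gRNA-labelled libraries and 13.6% and 18.1% in the No gRNA-labelled ones. Peaks covered more of the genome in the same libraries, at 21.4% and 28.5%, and 32.0% and 26.3%. No H3K4me3 peak was listed in any library for 69 members (30.4%, against 3.43% of all promoters), and 19 (8.37%, against 72.3%) had a peak in all 4. The genes between the receptors were different. Of the 100 other protein-coding genes inside the large clusters 60 had an H3K4me3 peak in all 4 libraries, compared with 12 of the 193 receptor genes there. Median H3K9me3, averaged over the libraries, was 11.6% at these other genes and 19.1% at the receptors.

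OR1F1 on chromosome 16 had the most H3K4me3 of all members, with 100% and 100% in the All gRNA-labelled libraries and 98.5% and 100% in the No gRNA-labelled ones. It was also 1 of only 2 members with a peak at q ≤ 0.05, at q of 0.0323 in replicate 1 labelled All gRNA and 0.00666 in replicate 2 labelled No gRNA, where the peak was 99499 bases wide. The other was OR6B2, in replicate 2 labelled No gRNA (q of 0.00323). That peak was 10669 bases wide (chr2:240020130-240030798). It also covered the start of NDUFA10, which lies 4.69 kb from that of OR6B2. RefSeq places a proline tRNA gene, TRP-TGG3-5 (chr16:3188094-3188165), from 110 to 39 bases before the OR1F1 start, and 7 tRNA genes within 10 kb of it. OR1F1 was the sole member with a tRNA gene within 1 kb. Its promoter (GRCh38.p14, plus strand, chr16:3187954-3188253) is shown for this reason, beside that of OR7G1 (minus strand, chr19:9115714-9116013), whose H3K4me3 differed between the labelled groups.
OR1F1: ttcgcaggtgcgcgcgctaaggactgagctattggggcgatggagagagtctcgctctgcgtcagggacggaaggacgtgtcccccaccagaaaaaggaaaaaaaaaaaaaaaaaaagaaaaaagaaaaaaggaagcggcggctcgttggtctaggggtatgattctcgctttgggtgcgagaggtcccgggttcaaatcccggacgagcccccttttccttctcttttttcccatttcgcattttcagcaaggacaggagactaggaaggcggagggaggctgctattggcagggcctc
OR7G1: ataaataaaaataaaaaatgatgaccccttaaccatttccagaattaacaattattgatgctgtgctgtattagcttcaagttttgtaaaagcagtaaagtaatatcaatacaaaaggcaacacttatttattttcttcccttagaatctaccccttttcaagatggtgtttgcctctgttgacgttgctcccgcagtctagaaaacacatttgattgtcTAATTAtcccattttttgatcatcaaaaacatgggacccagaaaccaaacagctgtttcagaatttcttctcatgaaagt
The OR1F1 window holds 19 CpG at 0.929 of the number its base composition gives, and none of the 3 motifs. OR7G1 holds 2 CpG, at 0.248, and TAATTA (in capitals) from 30 bases before the start.

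Other members with an H3K4me3 peak in all 4 libraries included OR14A2 (78.6% and 100% in the All gRNA-labelled libraries, 100% and 100% in the No gRNA-labelled ones), OR2C1 (96.9% and 100%, 38.3% and 100%), OR10AC1 and the neighbours OR2V1 and OR2V2. Their nearest other protein-coding start lay a median of 44.8 kb away over the 19 genes, against 108 kb over the other 208 members. In OR2C1, H3K9me3 was high in the same cells (72.4% and 69.9% in All gRNA cells, 83.7% and 72.3% in No gRNA cells). OR10J5, a receptor known for the odorant lyral, likewise had H3K9me3 of 57.2% and 60.4% in All gRNA cells and 66.2% and 61.3% in No gRNA cells beside H3K4me3 of 90.0% and 5.20%, and 18.6% and 100%, in the libraries so labelled. Across members, H3K9me3 and H3K4me3 shares had a Spearman correlation of 0.27 (n = 227), and of 0.092 without the clusters of chromosomes 6 and 17 (n = 202). Points of a cluster share their domain, so these are descriptions only.

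Between the labelled groups, H3K4me3 was called higher in the All gRNA-labelled libraries at 3 members (1.32%, against 1.78% of all promoters) and lower at 2 (0.881%, against 2.21%), so the members lay near or below the background. As each labelled group may hold a library of the other condition, these calls may not contrast All gRNA with No gRNA cells. OR5C1 had 99.9% and 100% in the All gRNA-labelled libraries and 0% in both labelled No gRNA. OR7G1 had 81.6% and 78.2% against 0% and 21.3%, and OR2B11 53.0% and 47.6% against 0% and 0%. These groups did not overlap. OR2T10 had 0% and 12.3% in the All gRNA-labelled libraries and 53.6% and 57.5% in the No gRNA-labelled ones. OR2F2 had 15.04% and 16.4% against 50.5% and 67.9%, a direction that turned to 3.87 points higher with equal covered length. All of these peaks were weak, as the OR5C1 peaks had q of 0.544 and 0.576, and none of the 5 genes had an H3K4me3 peak at q ≤ 0.05. Without overlap, 11 members (4.85%) were higher and 12 (5.29%) lower, where 6.33% and 7.59% of all promoters were.

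A list of 39 related genes was read in the same way, with 15 of odorant signalling, 10 of receptor choice, 4 of receptor transport and 10 of general heterochromatin. H3K9me3 was called at 0 of them. H3K4me3 was called higher in the All gRNA-labelled libraries at 2, where 1.78% of all promoters were, namely GNAL (the olfactory G protein alpha subunit, 63.3% and 100% against 0% and 35.0%) and GNG13 (a G protein gamma subunit, 100% and 100% against 0% and 63.0%), and lower at 1, where 2.21% of all promoters were, the H3K9 methyltransferase gene SUV39H1 of the heterochromatin group (55.5% and 48.6% against 84.0% and 100%). An H3K4me3 peak was present in all 4 libraries at 8 of the 15 signalling genes, 7 of the 10 receptor choice genes, 3 of the 4 transport genes and all 10 heterochromatin genes. Among the factors of receptor choice, LDB1, KDM1A, ATF5, RCOR1 and EBF1 had H3K4me3 shares of 100% in every library. EBF3 had none, with H3K9me3 at 100% in all 4, and LHX2 had 0% and 42.2% in the All gRNA-labelled libraries and 28.1% and 100% in the No gRNA-labelled ones. The channel gene CNGA2, on the X chromosome, had H3K9me3 shares between 91.4% and 94.5%.

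Members were also alike in sequence. The GC content of TSS ± 10 kb had a median of 38.0% over members, 37.3% over the receptor genes of chromosome 11 and 45.2% over all promoters. Across members, GC content had a Spearman correlation of 0.24 with the H3K9me3 share and 0.41 with the H3K4me3 share (n = 227, a description over genes that are not independent). RefSeq promoters were found for 172 of the 227 members (181 windows of 300 bases, among 35116 in the table). TAATTA, the core of homeodomain sites, was present in 20.99% of these windows against 4.84% of all, TATAAA in 33.1% against 11.5%, and CCCNNGGG, the core of the EBF site, in 8.29% against 19.1%, on either strand in each case. CpG observed over expected had a median of 0.129, against 0.579 in all windows. The receptor genes of chromosome 11 (136 windows) were alike, with TAATTA in 23.5%, TATAAA in 36.0%, CCCNNGGG in 7.35% and a median CpG ratio of 0.115. TATAAA and TAATTA are more frequent in sequence of low GC content, and the part of base composition was not tested.

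By receptor family, family 7, whose 11 members are split between the clusters of chromosome 19, had the highest median H3K9me3 share at 93.7%, followed by family 11 at 52.5% (9 genes). Family 7 ranged from 11.9% to 97.9%. No gene of the OR2Z1 to OR7E24 cluster was below 82.3%, and none of the OR7A5 to OR10H4 cluster was above 41.0%. The 3 members of family 12 lie in the MHC and were at 0%. Families 51 to 56, to which 55 genes of chromosome 11 belong, have 0 members on the other autosomes. Coding sequences were 912 to 1071 bases long, and the closest other receptor gene was 78.2% identical in the median. For 20 members, among them OR4F and OR2T genes and the pair OR11H1 and OR11H2, a copy was at least 98% identical, so that reads of these genes may have been placed on either copy. Their H3K9me3 shares, averaged over libraries, ran from 0% to 78.7%, and 1 of the 20, OR4F3, was at 0% in all 4 libraries.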

How the data were processed

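ChIP-seq peak lists of 8 SUM159 libraries (2 All gRNA and 2 No gRNA for each of H3K9me3 and H3K4me3) were used. The members and lists were chosen with earlier results of these data known. According to the study's methods, reads were trimmed with fastp, aligned to hg38 with bowtie2, filtered for an exclusion list and duplicates, and called with MACS2 in each library; the submitters' processing notes instead list bcl2fastq 2.17, Trimmomatic 0.33, Bowtie 1.1.2 and MACS2 2.1.0. Which set made the files was not settled. The authors' caller gave each deposited peak a score, a fold enrichment ratio, a p-value and a q-value, both as −log10; these served only to filter or describe peaks. Deposited lists hold no counts, so depth and counting precision are unknown.

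All deposited peaks on chromosomes 1 to 22 and X were merged within a library, and the percent of TSS ± 10 kb (H3K9me3) or ± 1 kb (H3K4me3) covered was computed for 19962 protein-coding genes (GENCODE release 44, TSS at the annotated 5′ end) with Python 3.11.15, numpy 2.4.6 and pandas 2.3.3. With 2 against 2 libraries and no counts no model per gene could be fitted, so a gap of 25 points made a call, and the code was tested on simulated peaks. Genes were named by rule: called members, the highest and lowest H3K9me3 member of each large cluster, members with H3K4me3 peaks in all 4 libraries or at q ≤ 0.05, members at 0, those with H3K9me3 at q ≤ 0.01 in all 4, and called pathway genes; other genes were named after their values were seen. Replicate numbers were not used to pair the samples, and the correlation of their deviations was 0.026 for H3K9me3 and 0.015 for H3K4me3. With 2 libraries per group this cannot settle whether they were handled in pairs. Alternatives covered q thresholds of 0.05 and 0.01, windows, the gap, equal covered length, left-out libraries and clusters.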

Additional observations from a re-analysis of the deposited data

How the results depend on the processing

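No member called with all deposited peaks was called again at q ≤ 0.05 or q ≤ 0.01. OR7D4, not among them, was called at q ≤ 0.05. H3K9me3 calls over all promoters were 36 higher with all deposited peaks, 45 at q ≤ 0.05 and 26 at q ≤ 0.01. Those lower were 7, 1 and 2. H3K4me3 calls over all promoters went from 356 higher and 442 lower to 27 and 323, and then to 3 and 201. At q ≤ 0.05 and q ≤ 0.01, respectively, members called higher in H3K9me3 fell from 2 to 1 (OR7D4) and 0, clusters higher in All gRNA from 5 to 1 and 0, H3K4me3 calls from 3 higher and 2 lower to 0 of each, the H3K9me3 median of members above all promoters from 12.3 points to 0 at both, and the H3K4me3 deficit in promoters with a peak from -49.6 points to -26.3 and -12.4. That peaks are dropped explains the lower level by construction; the cause of the other shifts was not tested.

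With equal covered length, the H3K9me3 difference between group medians moved from 0.23 to -2.10 points and H3K4me3 calls to 7 higher and 1 lower, and the difference at OR2F2 was reversed to 3.87 points. At the first coding base, the median difference was 2.64, the H3K9me3 level 13.6 and H3K4me3 calls 5 higher. With H3K9me3 windows of ± 5 kb, 7 members were called higher, and with ± 25 kb the median difference was 1.20. H3K4me3 windows of ± 500 bases gave 5 higher, and ± 2 kb gave 5 lower and a deficit of -41.9. A gap of 10 points called 25 higher and 5 lower for H3K9me3 and 10 higher and 8 lower for H3K4me3, and a gap of 50 points called 0 higher for H3K9me3 and 0 lower for H3K4me3. No share of all promoters is given for the calls at other windows, the first coding base or other gaps, so these counts have no background beside them. Without the clusters of chromosomes 6 and 17 the median difference was 2.74 and the level 14.8.

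Leaving out a library gave 5 to 10 higher (10 without All gRNA replicate 2) and 0 to 1 lower members for H3K9me3, and 6 to 27 higher (27 without the library labelled All gRNA replicate 1) and 5 to 23 lower (23 without the library labelled No gRNA replicate 1) for H3K4me3. The group left with 1 library has no spread, so these are values with no test, and no share of all promoters is given beside them. Samples share only a replicate number. With the replicate block, 4 members were higher for H3K9me3 and 7 for H3K4me3, and 0 and 3 lower, again with no share of all promoters given. The other 63 values kept counts within 1.5 times and differences and levels within 1 SD of the replicates, a spread wide enough for the sign to turn: the H3K9me3 difference between group medians was -0.42 to 0.88 over the left-out libraries, and the H3K4me3 mean difference, -0.43, was -4.34 to 3.47 over them, 1.78 with equal covered length and 0.48 at the first coding base. Clusters higher in All gRNA were 5 to 7 over the left-out libraries. Depth is unknown, and a member at 0% had no peak listed, which does not show that the mark was absent.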
